A study of Mus musculus with 2 samples.

Results

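Langerhans cells (LCs) were the dendritic cells (DCs) to which the authors gave the class LC from surface antibodies, in skin-draining lymph nodes (dLNs) of mice. There were 440 LCs among the 3471 naive cells with expression values and 881 among the 7596 papain cells, or 1321 of 11067 in all. The cells were profiled by CITE-seq, which reads the mRNA of a single cell together with the counts of barcoded antibodies bound to its surface. Live MHCIIhi CD11c+ B220- cells, a gate that takes migratory DCs, were sorted from B6 mice that were unimmunized (naive) or had been injected in both rear footpads with ovalbumin (OVA) and papain 1 day earlier (papain). Papain is a plant cysteine protease used as a model allergen, and OVA is the accompanying protein antigen. Each condition was 1 library, so no value has a replicate and no test between conditions was made. According to the methods, the naive library came from pooled skin-dLNs and the papain library from popliteal LNs, whereas the deposited protocol names popliteal LNs for both. Lymph node site and immunization therefore cannot be told apart, and no mice given a mock injection were part of these data. Singlets were gated by flow cytometry before capture, and no doublet caller was run on these cells.

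LCs live in the epidermis, where they sit between keratinocytes and hold on to them by adhesion molecules such as EpCAM and E-cadherin. They carry langerin, a C-type lectin that forms their Birbeck granules, and they are set up and kept by TGF-β and by ligands of the CSF1 receptor. On leaving the skin they follow CCR7 to the dLN, where they present antigen on MHC class II beside dermal cDC1s (conventional type 1 DCs, XCR1+) and cDC2s (type 2, CD172a+).

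The antibody barcodes below begin with those of the 3 antibodies by which the authors identified LCs. Next is that of CD301b, which divides the cDC2s and by which LCs are described at the end. Last are those of a pair of antibodies that cannot be read separately. All are the tag sequences named in the headers of the deposited antibody data, written 5′ to 3′ in lower case with no part marked.
CD326: acccgcgttagtatg
CD172a: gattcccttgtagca
XCR1: tccattacccacgtt
CD301b: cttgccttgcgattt
CD11b: tatatctttgccgca
CD24: tatatctttgccgca
The barcodes of CD11b and CD24 were identical, so that the 12 antibodies had 11 distinct barcodes. In LCs, CD24 took 45.5% of the counts of the pair in the naive library and 46.3% in the papain library, and in the other classes it took 45.3 to 45.6% and 46.1%. The deposited CD11b and CD24 values were therefore not used as separate measurements of LCs.

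The LC class came from clusters of the surface antibodies, in which LCs were identified by CD326, CD172a and XCR1. Antibody values of LCs therefore describe the rule rather than test it. The values are on a natural log scale, relative to the geometric mean of the 12 antibodies in the same cell. CD326, the antibody against EpCAM, had a median of 3.37 over 636 naive LCs and 3.41 over 1163 papain LCs with antibody values. The cDC1s had 1.65 and 0.47, and the CD301bhi cDC2s had 0.40 in both libraries. CD172a (SIRPα) was at 0.75 and 0.93 in LCs, between the cDC1s at 0.12 and 0.19 and the CD301bhi cDC2s at 1.73 and 1.98. XCR1 stayed at 0.12 and 0.04 in LCs, against 1.15 and 1.09 in cDC1s. LCs were therefore the CD326-high, CD172a-low, XCR1-negative cells, as the plot of antibody values by class shows. The border was not sharp on CD326 alone. The lowest 5% of LCs lay below 2.63 with naive and below 2.37 with papain mice, and 8.30% of naive cDC1s and 2.51% of naive CD301blo cDC2s lay at or above that value.

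**Figure D1:**
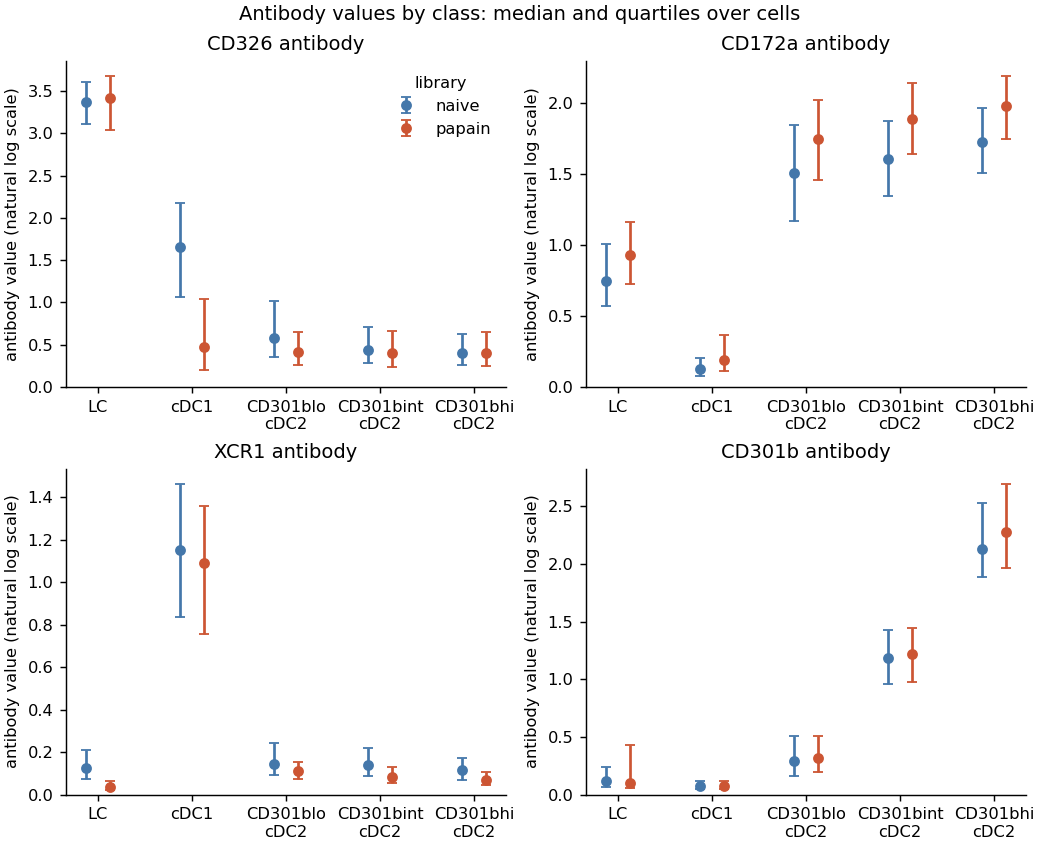
Antibody values on the natural log scale (y axes) for LCs and the 4 other classes (x axes) in the naive and papain libraries, with points at the median over cells and bars from the lower to the upper quartile. LC medians of CD326 were 3.37 and 3.41, while CD172a lay between cDC1s and cDC2s and XCR1 and CD301b medians were at most 0.12.

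MHC class II antibody made up 77.2% of all antibody counts on naive LCs and 53.9% on papain LCs, and its median value was 5.07 and 4.12. In the other classes together the median was 5.28 and 5.04. The share of CD326 counts on LCs was 14.5% and 23.4%. Since each antibody is scaled to the others in the cell, a lower share of one raises the rest, and no antibody here gives an absolute amount.

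By class, LCs made up 440 of 3042 naive cells with a class (14.5%, 95% interval 13.2 to 15.8%) and 881 of 7306 papain cells (12.1%, 11.3 to 12.8%). These and all later intervals for shares are exact Clopper-Pearson intervals. Those for expression levels are exact Poisson intervals, and those for ratios are exact binomial intervals conditional on the sum of both counts. They describe counting error alone, and differences between mice or between libraries are not part of them. Antibody values alone gave a further 196 naive and 282 papain LCs without expression values, and among all cells with antibody values the papain share was 14.2%. The naive LCs held 5315314 UMIs (unique molecular identifiers, each marking 1 captured mRNA molecule), with a median of 10767.5 per cell against 14484 in the other classes. The papain LCs held 18349441 UMIs, with a median of 18290 against 14696. LCs were thus the shallower cells in the naive library and the deeper ones in the papain library. At an equal depth of 5000 UMIs, a median of 1693 genes was detected in naive and 1795 in papain LCs. No LC barcode occurred in both libraries, and 2 barcodes did among all cells.

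The mRNA, which the class did not use, was checked against the LC markers. Levels are in CPM, in which the UMIs of a gene in all cells of a class are scaled to a common total of UMIs. *Epcam*, which encodes the adhesion molecule seen by the CD326 antibody, was at 102 CPM in naive and 156 CPM in papain LCs, against 14.7 and 4.84 CPM in the other classes. *Cd207*, which encodes langerin, was at 45.7 and 58.9 CPM in LCs. It was at 9.16 and 5.86 CPM in cDC1s, of which some dermal cells are known to carry langerin, and at 0.290 and 0.163 CPM in cDC2s. *Mfge8*, a bridging protein for the uptake of apoptotic cells, was at 657 and 349 CPM in LCs and at 405 and 138 CPM in cDC1s. *Cldn1*, a tight junction claudin, was at 29.0 and 20.9 CPM in LCs against 12.9 and 2.78 CPM in the other classes. Of the naive LCs 418 of 440 held at least 1 UMI of these 4 markers, as did 838 of 881 papain LCs. The naive cDC1s, with their *Mfge8*, had one in 454 of 578 cells.

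Single markers were sparse in single cells. *Cd207* had a UMI in 116 of 440 naive and 324 of 881 papain LCs. At 5000 UMIs per cell the expected share was 15.6% and 18.0% in LCs and 0.800% and 0.169% in the other classes. The same shares for *Epcam* were 39.1% and 42.4% in LCs against 4.64% and 1.89%. A cell without a *Cd207* UMI is therefore not shown to lack langerin.

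Among genes of the other DC types, the receptors *Xcr1* and *Clec9a* of cDC1s and *Mgl2* and *Cd209a* of cDC2s had few or no UMIs in LCs. *Xcr1* had 3 UMIs in all naive LCs and 12 in all papain LCs. *Clec9a*, a cDC1 receptor for dead cells, had 0 and 4 UMIs. The floor of 3 UMIs set here for a count of 0 equals 0.564 CPM in 5315314 UMIs. *Mgl2*, which encodes CD301b, had 33 UMIs in naive LCs, of which 23 came from 1 cell, and 2 in papain LCs. *Cd209a*, a lectin of cDC2s, had 30 UMIs in naive LCs, of which 28 came from 1 cell, and 0 in papain LCs. In papain mice the cDC2s had little of either, at 0.918 CPM of *Mgl2* and 0.449 CPM of *Cd209a*. The whole lists of 8 markers each were not absent, since they hold genes that LCs share. The cDC1 list, with *Irf8* and *Batf3*, summed to 643 and 740 CPM in LCs, where cDC1s had 886 and 1259 CPM and the cDC2 classes 458 to 514 and 458 to 511 CPM. The cDC2 list, with *Ccl17* and *Irf4*, summed to 317 and 889 CPM in LCs, where the cDC2 classes had 532 to 686 and 515 to 1001 CPM and cDC1s 117 and 157 CPM.

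Markers of lymphocytes and macrophages were found in some LCs. The 8 T cell markers summed to 21.1 CPM in naive and 17.3 CPM in papain LCs, below the 39.9 to 227 and 19.1 to 65.7 CPM of the other classes. The 6 B cell markers summed to 35.6 and 9.97 CPM, with *Ighm* at 27.7 and 7.41 CPM, within the 14.4 to 98.3 and 6.64 to 34.7 CPM of the other classes. The 5 macrophage markers that are listed summed to 15.1 and 20.2 CPM, where the other classes had 3.37 to 59.0 and 2.93 to 20.5 CPM. A UMI of these 5 was in 22.1% of papain LCs and in 3.40 to 14.5% of the other papain classes, which were the shallower cells. Of 6 keratinocyte markers 1 is listed, at 4.33 and 2.02 CPM, and the other 5 were not analysed here.

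LCs were then compared with the other 4 classes of the same library pooled, restricted to genes that reached 50 CPM in one group or the other. In this pool cDC1s were 578 of 2602 naive cells and 235 of 6425 papain cells. Whether differences between the libraries against the pool follow from its make-up was not tested. A gene was called higher or lower at a 2-fold difference, with no test. In the naive library 39 of 2672 genes (1.46%) were called higher in LCs and 124 (4.64%) lower. In the papain library 55 of 2741 genes (2.01%) were called higher and 53 (1.93%) lower. The balance of higher and lower genes depended on the setting. With no CPM limit it was 2096 higher and 1810 lower in the naive library and 1630 and 1086 in the papain library, and against cDC1s alone it was 126 and 125 in the naive library. Without the LCs of high CD301b antibody described below, the papain library had 77 genes higher and 105 lower. With equal weight for each of the other classes, 40 genes were higher and 119 lower in the naive library. In the papain library 60 were then higher and 56 lower. Of the main calls, 157 of 163 naive and 87 of 108 papain calls were kept. The median log2 ratio over all genes compared was -0.05 and -0.04, which the scaling to a common total largely sets. A gene that reached 50 CPM in 1 group alone is likely to pass the fold too, so counts and medians of gene lists are descriptions of the genes that passed. The 10 genes furthest up and the 10 furthest down that went the same way in both libraries are named below.

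*Epcam* led the genes that were higher in LCs, with log2 ratios of 2.80 (95% interval 2.63 to 2.97) among naive and 5.01 (4.88 to 5.16) among papain cells. *Serpinb6a*, an intracellular inhibitor of serine proteases, was at 67.2 and 115 CPM in LCs against 14.8 and 14.2 CPM. *Gem*, a small GTPase that restrains voltage-gated calcium channels, was at 171 and 94.0 CPM against 39.0 and 22.5 CPM. *Grasp*, a scaffold protein that binds cytohesins, was at 276 CPM in LCs of both libraries against 71.8 and 79.1 CPM. *Igsf3*, an immunoglobulin superfamily membrane protein, was at 92.4 and 88.1 CPM against 24.8 and 25.3 CPM. LC levels of *Grasp* and *Igsf3* were close in naive and papain mice, with intervals of the log2 ratio of papain over naive from -0.08 to 0.08 for *Grasp* and from -0.21 to 0.08 for *Igsf3*.

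The remaining LC-high genes had lower CPM in papain than in naive LCs. *Hebp1*, a heme-binding protein, was at 88.2 and 50.1 CPM in LCs against 14.2 and 16.9 CPM. *Yes1*, a Src family kinase, was at 89.7 and 57.2 CPM against 35.0 and 16.2 CPM, and *Fam110a* at 76.4 and 67.7 CPM against 32.4 and 23.6 CPM. *Olfr109*, annotated as an olfactory receptor, was at 149 and 59.7 CPM against 57.3 and 16.9 CPM. For *Olfr109* the papain difference was one from cDC2s, since cDC1s stood at 60.2 CPM there and the log2 ratio of LCs over cDC1s was -0.01.

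The genes lowest in LCs included those of MHC class II, by the authors' classes. *H2-Ab1*, which encodes the β chain of I-A, was at 442 CPM in naive and 180.3 CPM in papain LCs against 1859 and 621 CPM in the other classes. *H2-Eb1* was at 733 and 450.5 CPM against 2762 and 1391 CPM, and *H2-Aa* at 960 and 532 CPM against 3112 and 1598 CPM. The difference in *H2-Ab1* was one from cDC2s, at 2258 and 635 CPM, more than from cDC1s, at 556 and 194 CPM. Classes called again by clustering the antibody values gave 543 naive LCs in place of 440. The naive log2 ratio of *H2-Ab1* then went from -2.07 to -0.91 and that of *H2-Aa* from -1.70 to -0.97, so both lost the call. That of *Fam110a* went from 1.24 to 0.94. The antibody against MHC class II had a median count of 6130 on LCs and 6619 on the other cells of the naive library, and of 3292 and 2993 in the papain library. These counts are not scaled to the total of all antibodies. Its median was 7998.5 on LCs and 7521 on the other cells in the naive library, and 6612 and 3639 in the papain library.

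*Dpp4*, the peptidase CD26, was at 9.03 and 16.0 CPM in LCs against 59.8 and 62.3 CPM. *Tubb2b*, a β-tubulin, was at 13.2 and 35.2 CPM against 63.9 and 124 CPM, and *Scn2b*, a sodium channel subunit, at 16.2 and 24.4 CPM against 62.7 and 66.8 CPM. *Lmo4*, a LIM domain adaptor of transcription factors, was at 34.1 and 40.4 CPM against 176 and 110.1 CPM, although papain cDC1s stood at 41.3 CPM. *Hmgn3*, a nucleosome-binding protein, was at 51.2 and 96.4 CPM against 166 and 292 CPM. *Vcam1*, an integrin ligand, was at 23.1 and 21.6 CPM against 71.3 and 55.9 CPM. *Ehf*, an ETS family factor of epithelia, was at 22.2 and 32.8 CPM against 128 and 100 CPM in the other classes. It was low against cDC2s only, since cDC1s had 20.9 and 26.4 CPM, and the log2 ratio of LCs over cDC1s was 0.09 and 0.31.

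**Figure D2:**
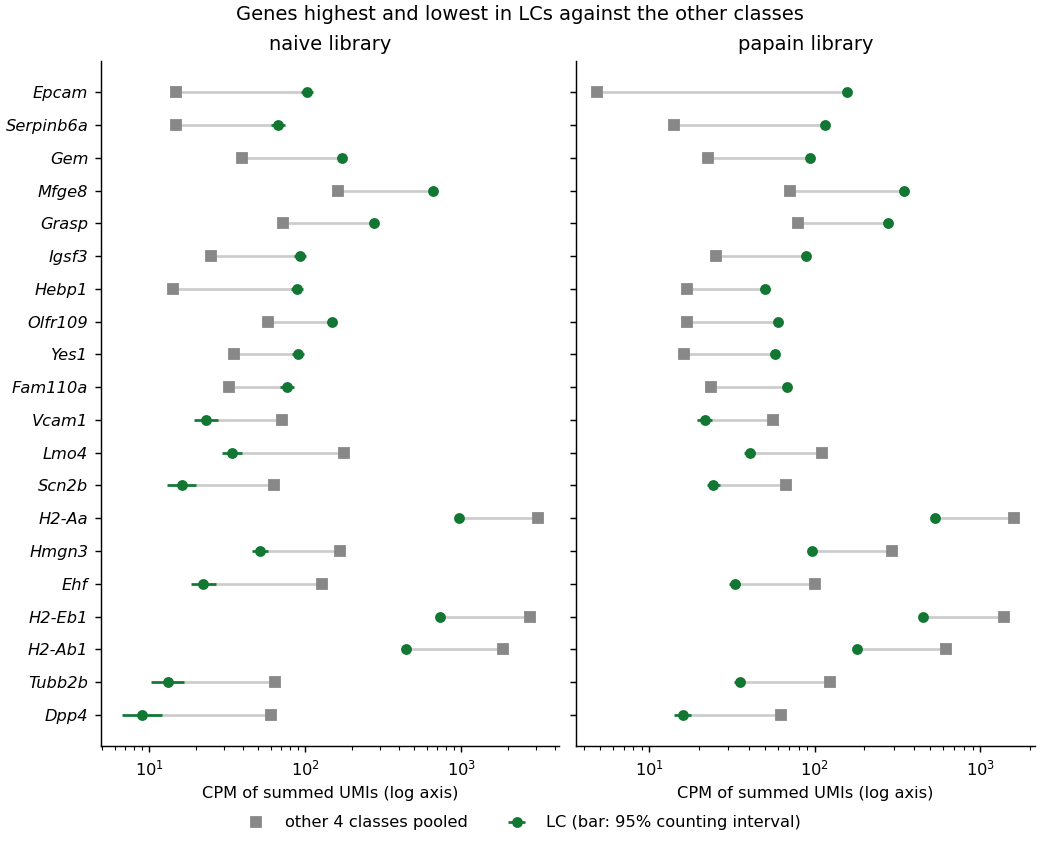
CPM (x axes, log scale) of the 20 genes named for LCs against the other classes, with circles for LCs, squares for the other 4 classes pooled and bars for the 95% counting interval of LCs. LC circles lie to the right of the squares for the upper 10 genes, from *Epcam* at 102 against 14.7 CPM in the naive library, and to the left for the lower 10, down to *Dpp4* at 9.03 against 59.8 CPM.

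Most genes known for LC identity and epithelial adhesion were scarce. Of 20 LC identity genes, 18 are listed and 5 reached 50 CPM among naive and 6 among papain cells. *Epcam* and *Mfge8* were called higher in the naive library, and *Epcam*, *Cd207*, *Mfge8*, *Cd24a* and *Nedd4* in the papain library, with none lower. Of all genes, 1.46% and 2.01% were called higher. *Cdh1*, which encodes E-cadherin, was at 4.70 CPM in naive and 1.09 CPM in papain LCs, above the 0.568 and 0.0791 CPM of the other classes. Of 20 epithelial adhesion genes, 3 and 4 reached 50 CPM and *Epcam* alone was called in each library. The tight junction genes *Ocln* and *Tjp1* were below 50 CPM, with *Ocln* at 16.4 and 11.3 CPM in LCs against 0.964 and 0.336 CPM and *Tjp1* at 11.1 and 6.76 CPM against 0.198 and 0.109 CPM. Their log2 ratios, 4.09 and 5.07 for *Ocln* and 5.81 and 5.96 for *Tjp1*, rest on 59 to 208 UMIs in LCs. *Plek2*, a pleckstrin family protein of the actin skeleton, was at 6.96 and 16.8 CPM against 0.791 and 0.485 CPM.

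Genes of the TGF-β pathway and of growth factor receptors are upstream of LC development. Of 30 TGF-β and bone morphogenetic protein genes, 7 and 9 reached 50 CPM and 0 and 1 were called higher, beside 1.46% and 2.01% of all genes. That gene was *Itgb8*, a subunit of the integrin that activates latent TGF-β, at 73.9 CPM in papain LCs against 16.0 CPM. In the naive library it was at 23.3 and 21.4 CPM. *Bmpr1a*, a bone morphogenetic protein receptor, had 25 and 41 UMIs in LCs, or 4.70 and 2.23 CPM against 0.445 and 0.396 CPM. None of the 4 growth factor receptor genes at 50 CPM or more was called in either library. *Csf1r*, the receptor of IL-34 and CSF1, was at 4.14 and 11.8 CPM in LCs against 18.5 and 3.21 CPM, so that its order against the other classes differed between the libraries.

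Among 39 DC lineage transcription factors, 24 and 23 reached 50 CPM. Of all genes, 1.46% and 2.01% were called higher and 4.64% and 1.93% lower. *Zeb2*, a repressor needed for cDC2s, was called lower in LCs in both libraries, at 66.6 and 88.5 CPM against 238 and 201 CPM. This was a difference from cDC2s, at 300.3 and 206 CPM, since cDC1s had 33.2 and 43.0 CPM. *Tcf4* and *Egr1* were called lower in the naive library only by the fold used here, and the difference between libraries was not tested. *Irf8*, a factor of cDC1s, was called higher in the papain library, at 530 CPM against 254 CPM, with 373 against 297 CPM in the naive library, while cDC1s stood above LCs at 566 and 830.3 CPM. *Id2*, which LCs need, was at 2997 and 1735 CPM against 1914 and 1664 CPM.

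Of 22 MHC class II presentation genes, 15 reached 50 CPM in the naive library and 8 were called lower in LCs, with a median log2 ratio of -1.13. The counts of this paragraph stand beside shares over all genes of 1.46% higher and 4.64% lower in the naive library. In the papain library those shares were 2.01% and 1.93%. As above, the low *H2-Ab1* was a difference from cDC2s more than from cDC1s. The genes called lower in the naive library were *H2-Aa*, *H2-Ab1*, *H2-Eb1*, *H2-Eb2*, the peptide loading genes *H2-DMa*, *H2-DMb1* and *H2-DMb2*, and *Cd74*, the invariant chain. In the papain library 4 of 12 were called lower, with a median of -0.54. *Ciita*, the master activator of these genes, was at 7.90 and 2.34 CPM in LCs against 38.2 and 11.6 CPM. Class I presentation gave fewer calls, with 1 of 19 genes called higher and 1 lower in the naive library and 0 of 20 higher and 1 lower in the papain library. The gene called higher was *H2-M2*, a class I-like molecule of DCs, at 2218 CPM in naive LCs against 904 CPM, and at 854 against 453 CPM with papain.

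Several inflammatory genes were lower in naive LCs than in the other naive cells. In that library 4.64% of all genes were called lower in LCs and 1.46% higher. Of 5 cytokine genes at 50 CPM or more, 3 were called lower: *Il1b* at 173 against 527 CPM, *Ebi3* at 25.2 against 61.6 CPM and *Tnf* at 18.1 against 56.0 CPM. Of 9 chemokine genes 3 were called lower, with *Ccl9* at 9.41 against 83.1 CPM, *Ccl6* at 6.96 against 51.2 CPM and *Ccl4* at 2.26 against 84.7 CPM. Of 13 costimulation and checkpoint genes 4 were called lower, among them *Cd80* at 26.5 against 53.3 CPM and *Cd274*, which encodes PD-L1, at 45.2 against 148 CPM. For several of these the difference was one from cDC2s, since naive cDC1s had *Il1b* at 61.0, *Tnf* at 23.8, *Cd80* at 24.0 and *Cd274* at 49.5 CPM. *Socs1*, an inhibitor of cytokine signalling, was called higher, at 199 against 61.4 CPM. In the papain library *Cd80*, *Cd274* and *Cd200* were called lower among 12 costimulation genes, and 0 of 7 chemokine genes were called. The immediate early genes *Fos*, *Atf3* and *Nr4a2* were called higher in papain LCs, with *Fos* at 789 against 307 CPM, and 3 of 21 such genes were called in all. Over all genes of the papain library, 2.01% were called higher and 1.93% lower.

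*Ccr7*, the receptor that guides DCs to the LN, was at 4444 CPM in naive and 3309 CPM in papain LCs against 3271 and 3192 CPM. *Fscn1*, the actin bundler of mature DCs, was at 2373 and 3439 CPM against 1958 and 2672 CPM. Of 16 and 15 migration genes at 50 CPM or more, *Actg1* and *Itgax* were called lower in the naive library and none was called in the papain library. Over all naive genes 4.64% were called lower. The median log2 ratio of the list was -0.39 and -0.15, against -0.05 and -0.04 over all genes.

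Papain LCs were next compared with naive LCs. Of 2747 genes that reached 50 CPM in either, 146 (5.31%) rose at least 2-fold and 56 (2.04%) fell, with a median log2 ratio of 0.12 over all genes. The same count was 65 higher and 87 lower of 2637 genes in cDC1s (2.46% and 3.30%). It was 95 and 130 of 2789 in CD301blo cDC2s (3.41% and 4.66%), 85 and 106 of 2762 in CD301bint cDC2s (3.08% and 3.84%) and 67 and 96 of 2756 in CD301bhi cDC2s (2.43% and 3.48%). Above this CPM limit LCs had more genes higher than lower, 72.3% of their calls, whereas each other class had more lower than higher. Mitochondrial, ribosomal and unnamed gene models were 19 of the higher and 23 of the lower genes in LCs. They were 6 and 32 in cDC1s, 14 and 32 in CD301blo, 11 and 33 in CD301bint and 9 and 38 in CD301bhi cDC2s. Leaving them out, only CD301blo cDC2s kept more genes lower than higher. With no CPM limit the LC split turned, to 1271 genes higher and 2561 lower. After centring the LC ratios on their median, 124 genes were higher and 65 lower. The papain LCs were also the deeper ones. With the 863 papain and 427 naive LCs of at least 5000 UMIs thinned to that depth, 151 genes were higher and 40 lower. Without the LCs of high CD301b antibody described below, 154 were higher and 57 lower.

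**Figure D3:**
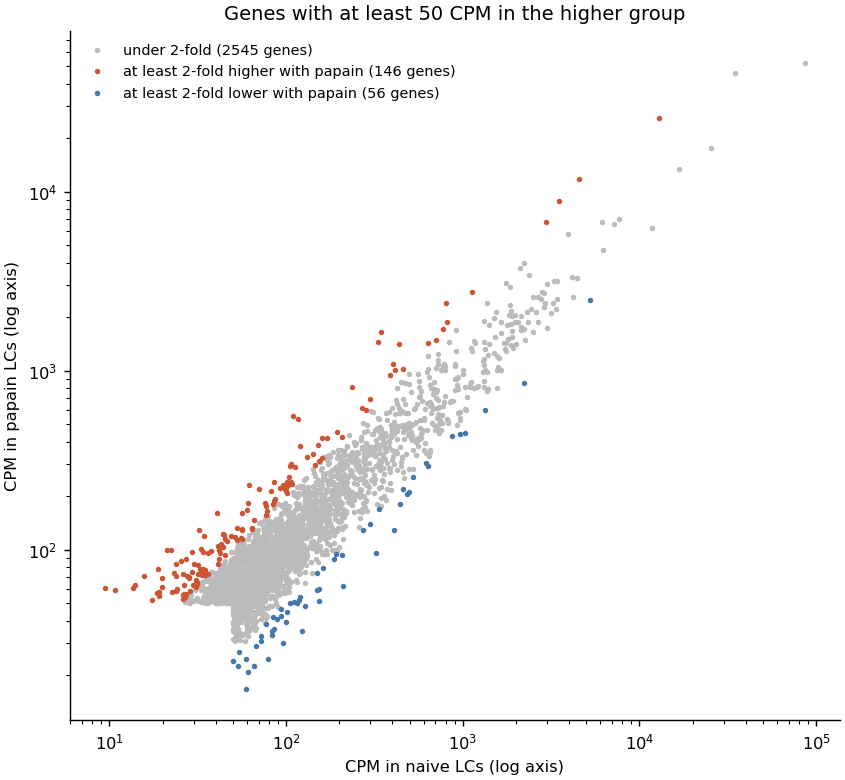
Each point is a gene by its CPM in naive LCs (x axis, log scale) and papain LCs (y axis, log scale), for the 2747 genes that reached 50 CPM in either. The 146 genes at least 2-fold higher with papain and the 56 at least 2-fold lower lie on either side of the band of genes under 2-fold.

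Among the named genes the largest rise was that of *Ccl9*, a chemokine for CCR1, from 9.41 to 61.4 CPM, a log2 ratio of 2.71 (2.30 to 3.14). In the other classes the ratio lay between -0.05 and -0.39, so naive LCs had less *Ccl9* than the other cells and papain LCs came near them, at 61.4 against 82.5 CPM. *Jdp2*, an AP-1 family repressor, rose from 10.7 to 59.6 CPM, by 2.47 (2.09 to 2.89), against 0.17 to 0.55 in the other classes. *Gpr183*, the oxysterol receptor EBI2 that positions cells in the LN, rose from 117 to 538 CPM, by 2.20 (2.08 to 2.32), against 0.13 to 0.75. *S100a10* and *Anxa2*, whose products form a membrane-binding complex, rose from 109 to 559 and from 332 to 1435 CPM, by 2.36 and 2.11. *Plat*, tissue plasminogen activator, rose from 13.5 to 61.3 CPM, by 2.18, against 0.30 in cDC1s and 1.33 to 1.49 in cDC2s.

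*Il2ra*, which encodes CD25, the high-affinity subunit of the IL-2 receptor, rose from 22.4 to 99.0 CPM, by 2.14 (1.88 to 2.42). The ratio was 1.09 to 1.26 in the cDC2 classes and 0.62 in cDC1s. *Fabp5*, a fatty acid carrier of epidermal cells, rose from 346 to 1653 CPM, by 2.26, and rose in every other class by 1.25 to 2.50. The interferon-induced genes *Ifi27l2a* and *Ifitm3* rose from 21.3 to 98.8 and from 13.9 to 63.1 CPM, by 2.22 and 2.18, and were higher by 0.98 to 3.30 in the other classes. *Ifitm3* in naive LCs came from 13 cells, and without the LCs of high CD301b antibody described below its ratio was 3.81.

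Among the genes that fell, *Cdh2*, which encodes N-cadherin, went from 124 to 34.9 CPM, by -1.82 (-1.98 to -1.66) on the log2 scale, against -0.35 to 0.04 in the other classes. In naive mice it was called higher in LCs, at 124 against 37.9 CPM, and in papain mice LCs came near the other classes at 34.9 against 30.2 CPM. *Mx1*, an interferon-induced GTPase, fell from 154 to 51.8 CPM, by 1.57 on the log2 scale, against -0.10 to -0.65 in the other classes. *Art2a*, an ecto-ADP-ribosyltransferase, fell from 59.6 to 16.7 CPM. *Ccrl2*, an atypical chemerin receptor, fell from 408 to 128 CPM and *Neurl3*, a ubiquitin ligase, from 95.8 to 30.1 CPM, and both had ratios below 0 in the other 4 classes too. *Tent5c*, a poly(A) polymerase, fell from 99.9 to 39.3 CPM and *H2-M2* from 2218 to 854 CPM. *Il12b*, the shared subunit of IL-12 and IL-23, fell from 127 to 48.6 CPM, and *Asprv1*, a protease of epidermis, from 60.8 to 20.8 CPM. *Asprv1* was sparse and uneven, with 45 of its 323 naive UMIs in 1 cell, and it was higher by 1.00 to 1.79 in cDC1s, CD301blo and CD301bint cDC2s.

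**Figure D4:**
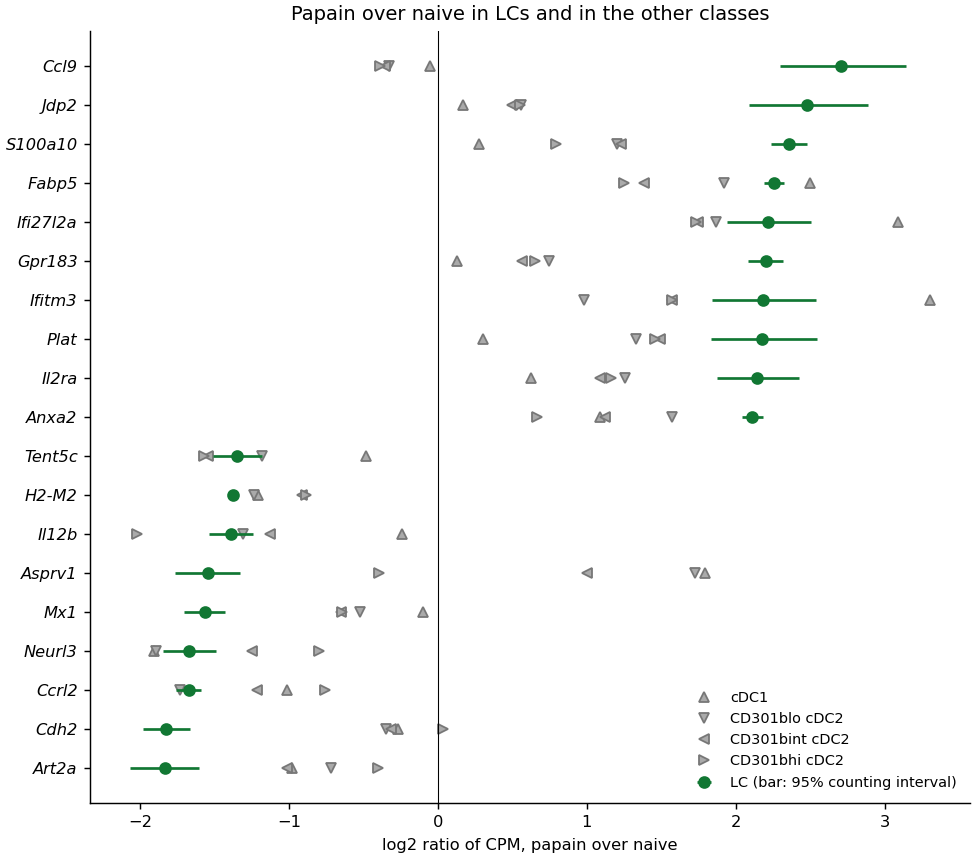
Log2 ratio of CPM, papain over naive (x axis), for 19 of the genes that rose or fell most in LCs, with circles and 95% counting intervals for LCs and grey triangles for the other 4 classes. *Ccl9* stood at 2.71 in LCs and at -0.05 to -0.39 in the other classes, while *Fabp5* and *Neurl3* went the same way in all classes.

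Of 24 chemokine genes, 7 reached 50 CPM in LCs and 4 rose with none falling, with a median log2 ratio of 1.02 against 0.12 over all genes. Over all genes 5.31% rose and 2.04% fell. Beside *Ccl9* the chemokine genes that rose were *Ccl17* and *Ccl22*, ligands of CCR4 on T cells, and *Cxcl2*, a neutrophil attractant. *Ccl17* rose from 237 to 805 CPM, by 1.76, and was higher by 0.47 to 1.32 in the other classes. *Ccl22* rose from 1134 to 2730.3 CPM, by 1.27, against -0.13 to 0.40 in the other classes. *Cxcl2* rose from 146 to 296 CPM, by 1.02, against -1.17 to 0.07. *Ccl5*, a chemokine for T cells and monocytes, was at 11737 and 6290 CPM, a ratio of -0.90 that did not reach 2-fold.

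Of 11 costimulation and checkpoint genes at 50 CPM or more, 3 rose and 1 fell, beside 5.31% and 2.04% of all genes. *Cd40*, the receptor for CD40 ligand on helper T cells, rose from 299 to 693 CPM, by 1.21 (1.14 to 1.29), and stood at 0.47 to 1.06 in the other classes. *Cd274* rose from 45.2 to 114 CPM and *Pvr*, a ligand of TIGIT and CD226, from 101 to 207 CPM. *Icosl*, the ligand of ICOS, fell from 191 to 94.6 CPM. *Cd86* was at 131 and 213 CPM and *Cd83* at 1929.9 and 1343 CPM, both under 2-fold.

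*Il2* was scarce, with 9 UMIs in 9 naive LCs and 82 UMIs in 80 papain LCs, or 1.69 and 4.47 CPM. At 5000 UMIs per cell the expected share of LCs with an *Il2* UMI was 0.936% and 2.12%, and in the other classes 1.87% and 2.07%. The log2 ratio in LCs was 1.40 with an interval of 0.41 to 2.58, at a level below the CPM limit. No class that should lack *Il2* was among these cells, so its share from free RNA was not tested.

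Of 28 genes of type 2 cytokine receptors and signalling, 13 reached 50 CPM and 4 rose, *Il2ra*, *Ccl17*, *Ccl22* and *Socs2*, with none falling and a median log2 ratio of 0.45. Over all genes 5.31% rose. *Ccl17* and *Ccl22* are also in the chemokine list, so the counts of the lists overlap. *Socs2*, a STAT5-induced suppressor, rose from 284 to 602 CPM, by 1.09, against 0.51 to 1.06 in the other classes. The receptor chains *Il4ra*, *Il7r* and *Il2rg* were at 66.2 and 66.2, 132 and 124, and 39.1 and 53.4 CPM. *Crlf2*, the receptor of TSLP, was at 27.1 and 18.6 CPM.

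Antigen presentation genes went in both directions. *Cst3*, cystatin C, an inhibitor of cysteine proteases, rose from 3512 to 8886 CPM, by 1.34 (1.32 to 1.36), against 0.52 to 0.91 in the other classes. *Ctsz*, cathepsin Z, rose from 385 to 941 CPM, by 1.29. *H2-Ab1* fell from 442 to 180.3 CPM, by 1.30 on the log2 scale, and it was lower in every other class too, by -1.21 to -2.01. *Cd74* was at 2765 and 2501 CPM, a ratio of -0.14, whereas in the other classes it was at -0.54 to -1.02. In all, 2 of 12 MHC class II presentation genes rose and 1 fell, beside 5.31% and 2.04% of all genes. Of 19 class I presentation genes, *Psme2*, an activator of the proteasome, rose from 105 to 295 CPM and *H2-M2* fell.

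Of 38 interferon-stimulated genes, 11 reached 50 CPM and *Isg15* and *Ifi27l2a* rose while *Mx1* fell, with a median log2 ratio of 0.71. The counts of this paragraph stand beside 5.31% of all genes that rose and 2.04% that fell. *Isg15*, a ubiquitin-like modifier, went from 40.5 to 159 CPM, by 1.98, and was higher by 2.22 to 2.94 in the other classes. *Itgb8* rose from 23.3 to 73.9 CPM, by 1.66 (1.40 to 1.94), against -1.98 to 0.24 in the other classes, and was 1 of 8 TGF-β pathway genes called. *Jup*, plakoglobin, a junction protein, rose from 30.1 to 83.0 CPM, by 1.46, and was the 1 of 4 epithelial adhesion genes called. Of 23 lineage transcription factors, *Tcf4* rose from 43.1 to 108 CPM and *Ikzf4* from 17.5 to 52.3 CPM, and *Cebpb* fell from 54.0 to 26.7 CPM. The actin gene *Actb* rose from 12901 to 25884 CPM, at a log2 ratio of 1.00, with 0.29 to 0.68 in the other classes.

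For the other lists the counts are to be read beside the 5.31% of all genes called higher and the 2.04% called lower. None of 24 NF-κB pathway genes, of 12 apoptosis genes or of the 6 LC identity genes at 50 CPM or more was called between papain and naive LCs. The NF-κB inhibitor gene *Nfkbia* was at 2491 and 2583 CPM. *Btg2* was the 1 of 20 immediate early genes called, falling from 1033 to 446 CPM, and *Hspa1a* the 1 of 10 heat shock genes, falling from 273 to 129 CPM. *Epcam* was at 102 and 156 CPM, a ratio of 0.61, while it was lower in every other class, by -0.34 to -2.13. *Mfge8* was at 657 and 349 CPM, a ratio of -0.91.

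Across the 5 classes, 1873 genes reached 50 CPM in every class in at least 1 library. The LC ratio of papain over naive was at least 1 log2 unit above that of all 4 other classes for 8 of these genes and at least 1 below for 2. The 5 with the largest excess were *Gpx1*, *Fgl2*, *S100a10*, *Klf4* and *Plek*. *Gpx1*, the glutathione peroxidase that removes hydrogen peroxide, rose from 193 to 455 CPM in LCs, by 1.24 (1.14 to 1.33), and had ratios of 0.07 and -0.09 to -0.19 in the other classes. *Fgl2*, a fibrinogen-like protein, rose from 29.5 to 97.0 CPM, by 1.71, against 0.11 to 0.56. *Plek*, pleckstrin, was at 157 and 135 CPM in LCs, a ratio of -0.22, where the other classes had -1.31 to -1.61. *Klf4*, a zinc finger factor of skin and of DCs, was at 107 and 135 CPM, a ratio of 0.34, where the other classes had -0.77 to -1.11.

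The 5 with the largest deficit were *Mif4gd*, *Il21r*, *Mx1*, *Pla2g16* and *H2-Q4*. *Il21r*, the IL-21 receptor, was at 190.2 and 99.9 CPM in LCs, a ratio of -0.93 (-1.04 to -0.82), and had 0.14 to 0.62 in the other classes. *Pla2g16*, a phospholipase, was at 274 and 183 CPM, a ratio of -0.58, against 0.29 to 1.04. *H2-Q4*, a class Ib molecule, was at 351 and 244 CPM, a ratio of -0.53, against 0.31 to 0.45, and *Mif4gd*, a translation factor partner, at 62.3 and 45.4 CPM against 0.64 to 0.82. The H2-Q genes are close copies of one another, so reads may be split among them. With 1 library a condition, whether these ratios differ between LCs and the other classes was not tested.

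The LCs were not uniform. Although the median CD301b antibody value of LCs was 0.12 and 0.10, some LCs lay above 0.73, the upper bound of the CD301blo class, and this group was chosen after its values were seen. They were 29 of 440 naive LCs (6.59%) and 202 of 881 papain LCs (22.9%). They held a median of 20383 UMIs with naive and 28676.5 with papain mice, against 10356 and 16810 in the other LCs. Their median CD326 was 2.75 in both libraries against 3.43 and 3.54.

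In mRNA these LCs had less of the LC markers and more of the genes that were low in LCs as a whole. *Epcam* was at 35.9 and 82.3 CPM in them against 111 and 192 CPM in the other LCs, and *Cd207* at 3.26 and 26.9 against 51.2 and 74.0 CPM. *Zeb2* was at 249.7 and 143 CPM against 42.7 and 62.4 CPM, *Ehf* at 129 and 73.8 against 8.29 and 13.3 CPM, and *H2-Ab1* at 1298 and 236 against 331 and 154 CPM. Without these LCs the log2 ratio of *Ehf* against the other classes was -3.95 and -2.92 in place of -2.53 and -1.62, and the papain library had 182 calls in place of 108.

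The share of LCs above that bound rose with depth. When LCs were split into tertiles by UMIs per cell, it was 0%, 4.11% and 15.6% for naive LCs, from the fewest to the most UMIs, and 5.44%, 15.7% and 47.6% for papain LCs. The tertiles had median UMIs of 7202, 10767.5 and 16219 in naive LCs and of 9492.5, 18290 and 32591.5 in papain LCs. *Zeb2* was at 24.3, 28.7 and 105 CPM in the naive and 45.6, 60.4 and 116 CPM in the papain tertiles. *Mfge8* went the other way, at 807, 772 and 533 CPM and at 593, 361 and 273 CPM. *Gpr183* was at 18.4, 24.9 and 208 CPM in naive LCs and at 133, 588 and 626 CPM in papain LCs, as the plot of LC tertiles shows. *Ccl17* was at 49.5, 89.2 and 394 CPM and at 317, 849 and 919 CPM. In naive LCs both genes were thus highest in the deepest tertile.

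**Figure D5:**
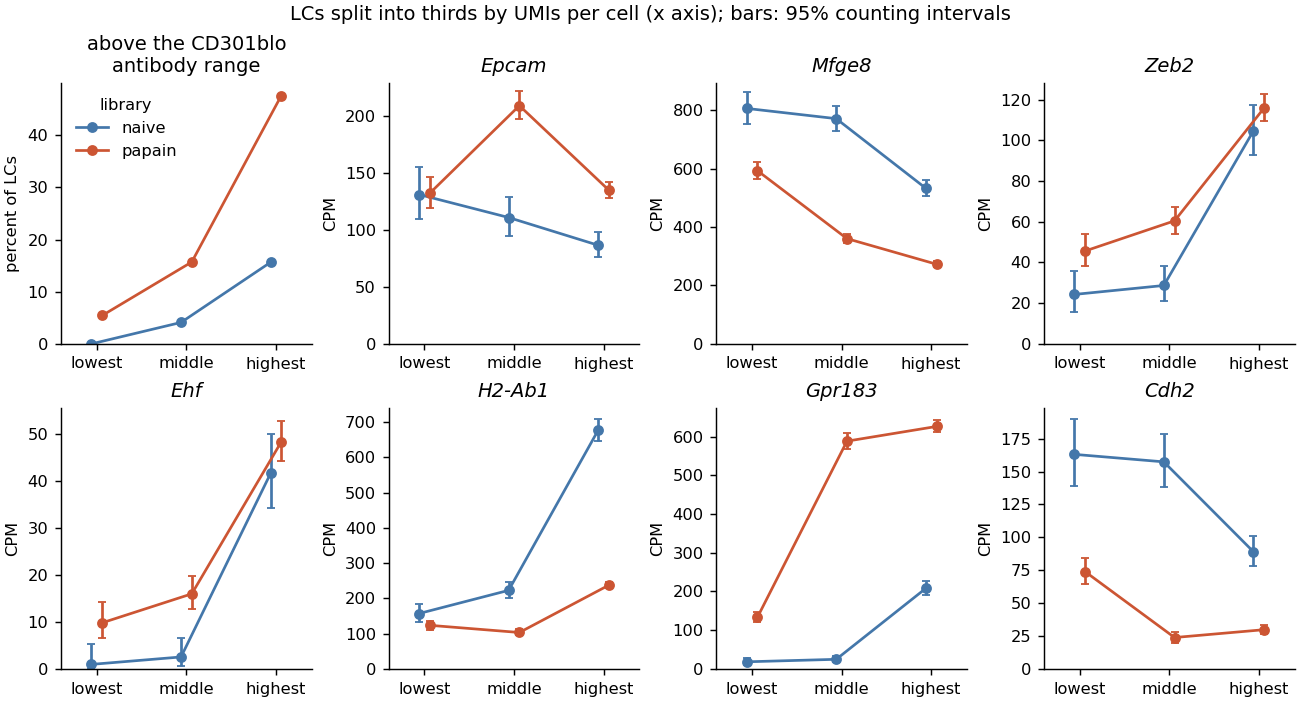
LCs of each library split into tertiles by UMIs per cell (x axes), with the percent of LCs above the CD301blo antibody range in the first panel and CPM of 7 genes in the others, and bars for 95% counting intervals. The percent above the range reached 15.6% and 47.6% in the highest tertile, *Zeb2* and *Ehf* were highest there, and *Gpr183* was higher with papain in each tertile.

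The authors' gate on the antibody map held 436 of 440 naive and 818 of 881 papain LCs. The 63 papain LCs outside it had a median of 47575 UMIs. Without the LCs outside the gate the count of papain over naive calls was 178 in place of 202. An LC with a UMI of *Cd3e* or *Trac*, genes of the T cell receptor complex, was found in 14 naive and 64 papain cases. Whether the deep LCs or those of high CD301b antibody held more than 1 cell each was not tested.

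The papain ratios of many genes differed between tertiles, which were not matched in depth between the libraries. Of the 146 genes that rose, 85, 140 and 99 rose at least 2-fold in the lowest, middle and highest tertile. Of the 56 that fell, 15, 55 and 46 fell at least 2-fold. In the lowest tertile 143 of the 146 and 55 of the 56 kept their direction, as did all in the other tertiles. In the lowest tertile *Asprv1* had a ratio of 0.15 and *Il12b* of -0.12, so the fall of both rested on the deeper LCs. *Gpr183* was higher in each tertile, by 2.85, 4.56 and 1.59, and *Cdh2* lower in each, by -1.14, -2.72 and -1.58. *Klf4*, with ratios of 0.76, 0.68 and -0.01, was higher in the lower 2 tertiles only.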

How the data were processed

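The 2 libraries, 1 naive and 1 papain, were made with 10x 3' chemistry, and the submitters' processing notes name Cell Ranger 3.0.1, Partek and mm10. The authors deposited expression as log2(CPM + 1) per cell for 18049 genes. These were turned back into UMI counts by taking the smallest step of values in each cell as 1 UMI, which also gave its total of UMIs. Of values of up to 50 UMIs, 100% came out whole within 0.02 UMIs. The listed genes held 81.0 to 97.4% of the UMIs of a naive cell and 90.9 to 97.9% of a papain cell. Antibody values were deposited by the authors as a natural log, relative to the geometric mean over 12 antibodies, and the counts recovered from them lay within 0.0342 of whole numbers. The authors' class and gate columns were copied. The totals per cell inferred in this way summed to 53095046 UMIs over the naive and 122133401 over the papain cells. The authors clustered cells on the surface antibodies and identified the LC class among the clusters by CD326, CD172a and XCR1.

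UMIs were summed per class and library and compared as CPM, in Python 3.11.15 with numpy 2.4.6, scipy 1.17.1 and pandas 2.3.3. A gene was called at 2-fold if it reached 50 CPM in either group. With 1 library per condition no test was run. A ratio against a group at 0 UMIs used a floor of 3 UMIs. Shares of cells with a UMI were computed as the mean chance of a UMI after thinning to 5000 UMIs per cell, leaving out 13 naive and 18 papain LCs below that depth. Named genes were the 10 highest and 10 lowest ratios of each comparison, taking for identity the smaller of the 2 libraries' ratios and the same direction in both. Beside the other classes they were the 5 largest excesses and the 5 largest deficits over the nearest class. Mitochondrial, ribosomal and unnamed gene models were counted and not named, and some genes that the rule or a marker list holds are not reported here. Of the 592 genes of the 22 gene lists and 12 marker lists, 44 were not analysed here. The members, lists and rules were chosen with earlier results of these data known. Steps across genes were tested on simulated data. The simulated counts were independent Poisson draws, as the intervals assume, so uneven counts between cells were not part of that check. Alternatives changed the CPM limit, the added constant, the weighting, the filters, the cells and the class calls, the last with leidenalg 0.10.2 and a scikit-learn 1.9.0 mixture.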

Additional observations from a re-analysis of the deposited data

Results flagged for a closer look

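Only the genes named for papain against naive LCs were screened for opposite signs, with every counting interval clear of 0. Of these, 5 had a log2 ratio in LCs opposite in sign to that in each of the 4 other classes. All 5 had been picked for their difference from the other classes. That difference was not tested, since each condition was 1 library. *Ccl9* and *Epcam*, described above, also had opposite signs without meeting this rule. *Klf4* had 0.34 in LCs against -0.77 to -1.11. *Mif4gd* had -0.46 against 0.64 to 0.82. *Il21r* had -0.93 against 0.14 to 0.62. *Pla2g16* had -0.58 against 0.29 to 1.04. *H2-Q4* had -0.53 against 0.31 to 0.45. None of the 5 reached 2-fold in LCs. By UMI tertile, from the fewest to the most UMIs, the 4 genes that were lower in papain LCs were lower in each, with *Il21r* at -0.68, -1.46 and -0.69 and *Mif4gd* at -0.62, -0.84 and -0.09. *Klf4* had 0.76, 0.68 and -0.01.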

How the results depend on the processing

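All ratios rest on 1 library per condition, and precision beyond counting error is unknown. No paired analysis was possible because each condition was 1 library with no replicate number. The counts of calls, 163 (naive) and 108 (papain) for LCs against the other classes and 202 for papain against naive LCs, changed most with the CPM limit. At 10 CPM they were 665, 344 and 536, at 200 CPM 38, 24 and 73, and with no limit 3906, 2716 and 3832. Against cDC1s alone the first 2 were 251 and 297, and *Ehf* turned to 0.090 and 0.31 and *Olfr109* in the papain library to -0.012. Classes called again by Leiden clustering ended the naive calls of *H2-Ab1*, *H2-Aa* and *Fam110a* and gave 78 calls in the naive library, where 543 cells were then LCs, and LC shares of 17.8% and 14.5% in place of 14.5% and 12.1%. A mixture on CD326 alone gave shares of 45.6% and 22.1%. Only LCs with a *Cd207* UMI gave 166 calls in the papain library. Chosen after seeing the data were the next alternatives. Without the deepest tertile of LCs there were 300 and 176 calls, without LCs of high CD301b antibody 182 in the papain library, and with the strictest LCs (in the authors' gate, in the CD301blo range and with no T cell receptor UMI) 186. Over all cells with antibody values the LC shares were 14.3% (naive) and 14.2% (papain). The cause of these changes was not tested, other than the number of genes that a limit admits. Of 936 values of single genes under the planned settings, 644 stayed within their counting interval, 289 moved beyond it and 3 turned.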

Other observations

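In lipid metabolism, 4 of 13 genes at 50 CPM or more were called in the papain library, where 2.01% of all genes were called higher and 1.93% lower. *Sqle*, of sterol synthesis, and *Plin2*, a lipid droplet coat protein, were called higher in papain LCs than in the other papain cells, and the fatty acid carriers *Fabp4* and *Fabp5* lower. None of 5 cell cycle genes at 50 CPM or more was called between papain and naive LCs. *Mki67*, a marker of cycling cells, was below that limit, at 15.4 and 47.5 CPM. By tertile of UMIs it was at 1.94, 2.55 and 28.0 CPM in naive and at 32.3, 30.7 and 61.0 CPM in papain LCs.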
